A study of Mus musculus with 14 samples.

Results

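The genes described here encode the subunits, activators and assembly chaperones of the proteasome in follicular B cells of the mouse spleen, which are mature B cells that recirculate. They were chosen by symbol, as the protein-coding genes named Psma, Psmb, Psmc, Psmd, Psme or Psmg with a number, and kept at a mean of at least 1 CPM (counts scaled to library size) over the 14 libraries. That gave 45 genes of the 39179 gene IDs counted, and all 45 passed the filter on low counts. The 5 immunoproteasome genes Psmb8, Psmb9, Psmb10, Psme1 and Psme2 are treated apart from the other 40. Of the 47 coding genes with such names, Psma8, a testis-specific alpha subunit, stood below the minimum with a mean of 0.1181 CPM from 18 counts. Psmb11, the thymus-specific catalytic subunit, had no count in any library, which allows a mean of up to 0.0193 CPM (3 counts over all libraries). The lowest genes kept were Psmg3 at a mean of 12.27 CPM and Psmg4 at 14.23 CPM.

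RNA was measured in cells isolated with a bead kit from spleens of C57BL/6 mice of 3 genotypes: wild type (wt), crel-/- (cko, lacking c-Rel) and relb-/-crel-/- (dbko, lacking RelB and c-Rel). Both proteins belong to the NF-kB family of transcription factors, which is activated through the receptors of BAFF, a cytokine that B cells need to survive. Cells of each genotype were taken at 0h and after 6h with BAFF at 50 ng/ml, and wt cells also after 27h, with 2 libraries in each of the 7 groups. No culture without BAFF was analysed here, so effects of BAFF and of culture time cannot be told apart. Whether the 2 libraries of each group are from different animals is not stated, and the p-values thus reflect how far these libraries differ, which may be technical spread. They also give no age or sex of the mice, and do not say which cells carry the deletions.

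The proteasome degrades proteins that carry ubiquitin chains. Its core particle is a barrel of stacked rings: the outer rings are built of alpha subunits (Psma genes) and the inner rings of beta subunits (Psmb genes), of which Psmb5, Psmb6 and Psmb7 carry the proteolytic sites. Psmb8, Psmb9 and Psmb10 encode catalytic subunits that replace those 3 in the immunoproteasome, a form induced by interferon and abundant in lymphocytes that yields peptides for MHC class I. The regulatory particle binds and unfolds substrates with ATPases (Psmc genes) and non-ATPase subunits (most Psmd genes). Psme1 and Psme2 encode the subunits of the PA28 activator ring, and Psme3 and Psme4 encode other activators. Psmg genes with Psmd5, Psmd9 and Psmd10 encode chaperones of assembly.

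Gene counts ranged from 10497802 to 11888765 per library, and the 45 genes had between 81 (Psmg3) and 4163 (Psmd2) counts in any one library. At 0h the targeted gene Rel had 633 and 621 CPM in wt, 58.3 and 52.4 CPM in cko and 40 and 52.3 CPM in dbko, and Relb was 0.97 ± 0.14 log2 lower in dbko than in wt at 0h (here and below ± is the standard error and log2 stands for the log2 fold change fitted by edgeR). Relb counts therefore remained in dbko. Of 8 B cell markers 7 were found, with a summed level of 5537 to 10881 CPM, beside at most 21.7 CPM for 7 T cell markers. Markers of red cell precursors (11 of 12 found, none at 0 in all libraries) summed to 1764 and 856 CPM in dbko at 0h, against 26.2 and 31.6 CPM in wt and 102 and 109 CPM in cko. Macrophage markers (12 of 12 found) summed to 231 and 137 CPM in dbko at 0h, to 135 and 140.1 CPM in wt and to 39 and 35.2 CPM in cko. Replicates of some groups also stood apart for the proteasome genes. In dbko at 0h, replicate 1 was above replicate 2 for 39 of the 40 genes, by a median of 0.35 log2, and in cko at 6h replicate 2 was above replicate 1 for 38 of 40, by a median of 0.23 log2. Over all genes tested, the median of replicate 2 against replicate 1 was -0.00 log2 in dbko at 0h and 0.02 log2 in cko at 6h. In bulk RNA, a different mix of cells and a different amount of RNA per cell cannot be told apart.

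In wt cells most proteasome genes outside the immunoproteasome rose with BAFF, first by a little and then by more. At 6h, 20 of the 40 genes were higher than at 0h and 4 were lower at an adjusted p under 0.05, where 22.6% of all 12630 genes tested were higher and 23.5% lower. At 27h, 32 were higher than at 0h and 0 lower, against 23.0% and 24.6% of all genes tested. Between 6h and 27h, 27 rose and 0 fell, against 15.9% and 18.2%. Beside those 0 genes, 0 were lower at 27h than at 0h at an unadjusted p under 0.05 and 1 was lower than at 6h, and DESeq2 called 0 lower in each. The median change of the 40 genes was 0.31 log2 at 6h and 0.80 log2 at 27h against 0h, with the median of all genes tested at -0.00 and 0.00. The 2 wt comparisons with 0h share their 0h libraries.

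The rise was moderate for each gene and wide across the family. The summed level of the 40 genes was 3530.0 and 3533 CPM at 0h, then 4074 and 4254 CPM at 6h, then 5725 and 5741 CPM at 27h, so the libraries of the 3 times did not overlap. As a share of raw gene counts, the 45 genes took 0.384% and 0.389% at 0h, 0.476% and 0.494% at 6h and 0.72% and 0.721% at 27h. Only 1 of the 40, Psmd11, was at least 2-fold higher at 6h, and 12 were at 27h. The share of all genes at least 2-fold higher was not counted. The upper quartile of the change was 0.52 log2 at 6h and 1.07 log2 at 27h for the 40 genes. For all genes tested it was 0.48 and 0.52 log2. Within lane 7, which held every replicate 1, 31 of 40 were above 0h at 6h and 37 at 27h, and within lane 8 these counts were 30 and 37. By the fit over both lanes, 6256 of all 12630 genes tested were above 0h at 6h and 6345 at 27h.

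The calls at 6h were less stable than those at 27h. Without wt 0h replicate 1, wt 0h replicate 2, wt 6h replicate 1 or wt 6h replicate 2, the count of genes that rose by 6h was 8, 9, 11 and 8, and without the first library of either group 1 gene fell. Calls that held with any 1 library left out were those of Psmd2, Psmd11, Psmd1, Psmd7, Psma3 and Psma4 (higher) and Psmd9 (lower). At 27h against 0h, 27 of the 32 calls held in this way, and from 6h to 27h 13 of 27. The latter count fell to 14 without wt 6h replicate 1 and to 17 without wt 27h replicate 2.

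**Figure D1:**
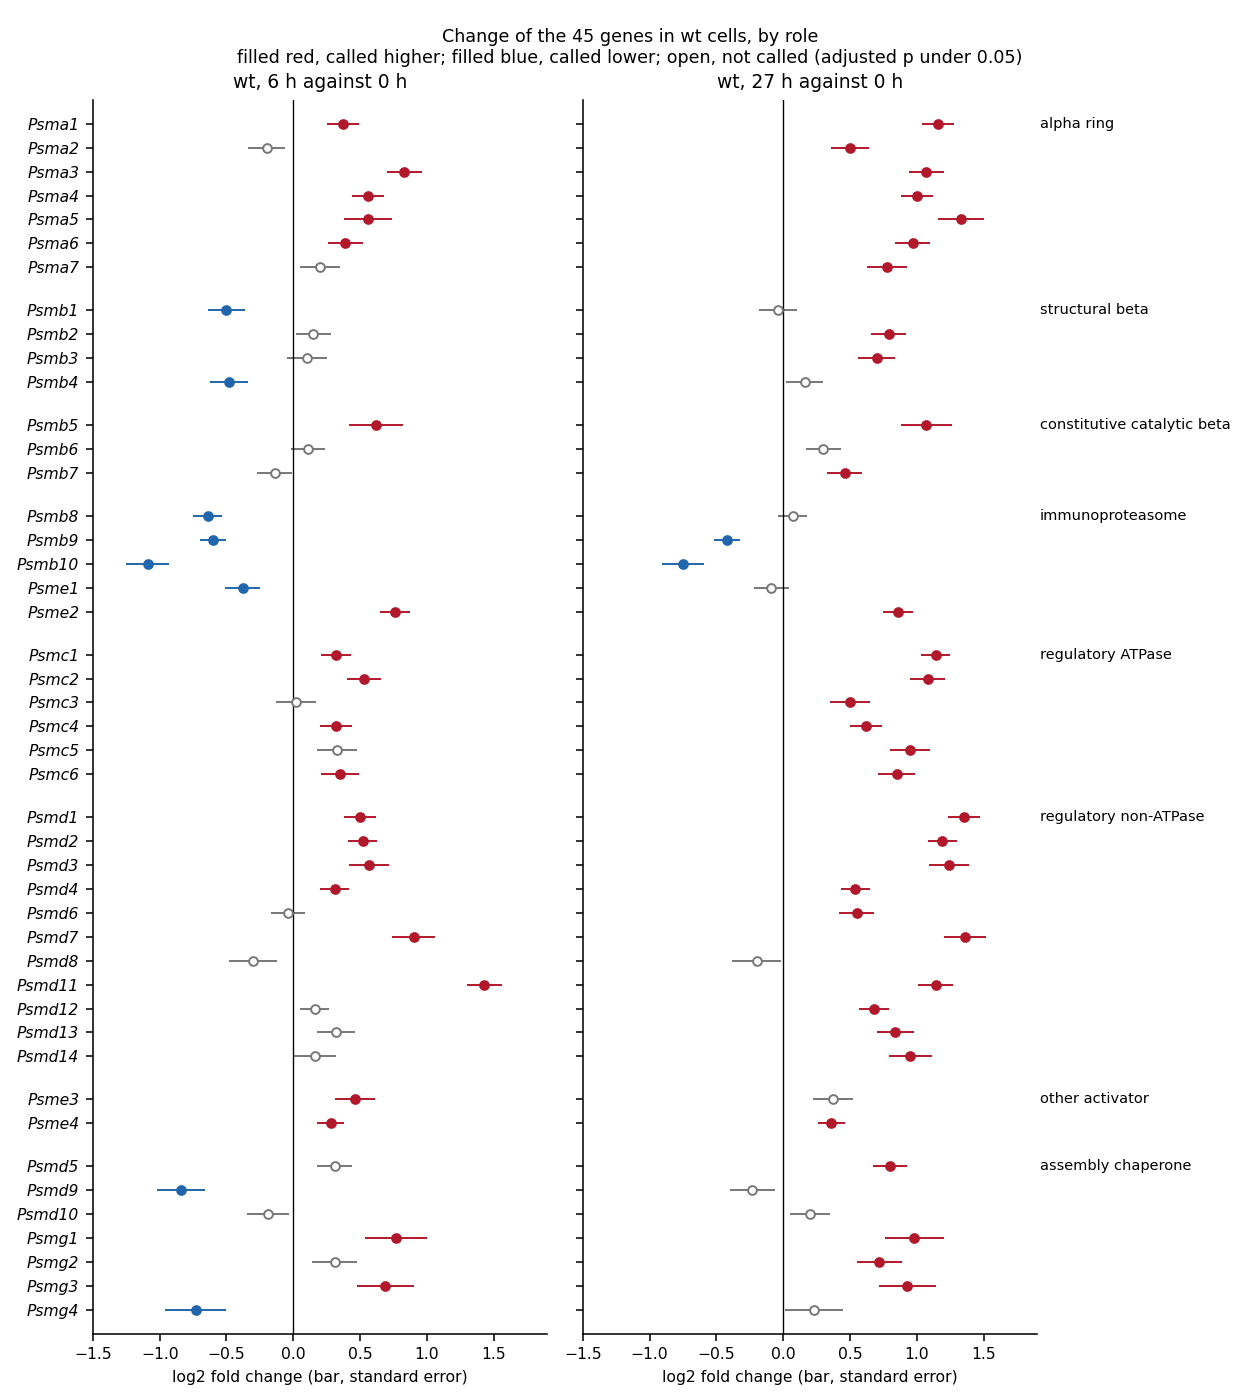
Log2 fold change of each of the 45 genes in wt cells at 6h (left) and 27h (right) against 0h, with its standard error, in groups by role; filled points passed an adjusted p under 0.05 (red higher, blue lower), 2 libraries a group. At 6h the points lie on both sides of 0, from Psmb10 at -1.09 to Psmd11 at 1.43, and at 27h all filled points are to the right except those of Psmb9 and Psmb10.

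The alpha ring rose as a group of genes. At 6h 5 of its 7 expressed genes were higher (Psma1, Psma3, Psma4, Psma5 and Psma6), and at 27h all 7 were, with a median of 1.00 log2. Psma4 went from 56.7 and 58.6 CPM to 83.5 and 87 CPM at 6h, then 115 and 116 CPM at 27h, then 1.00 ± 0.12 log2 above 0h (adjusted p = 2.44e-05). The smallest rise by 27h was that of Psma2, at 149.6 and 144 CPM at 0h, then 122 and 134 CPM at 6h, then 207 and 209.9 CPM at 27h (0.50 ± 0.14, adjusted p = 0.00838). Psma5 had the largest, 1.33 ± 0.17 (adjusted p = 6.31e-05), but 50.0% of the 50-base windows of its transcripts also occur in transcripts of other genes, so its counts are uncertain. Per kb of exon, the expressed alpha genes spanned mean levels from 6.38 CPM (Psma3) to 121 CPM (Psma6), although their products sit in the ring in equal numbers. With the length of the basic transcripts in place of all exons, Psma3 was again the lowest (13.4 CPM per kb) and Psma6 the highest (163).

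The structural beta genes behaved differently at 6h. None of these 4 genes rose and 2 fell: Psmb1, at 209 and 198 CPM at 0h, then 135 and 153 CPM at 6h (-0.50 ± 0.14, adjusted p = 0.0107), and Psmb4, at 175 and 163 CPM and then 123 and 119 CPM (-0.48 ± 0.14, adjusted p = 0.0132). At 27h neither was called against 0h, with Psmb1 at 203 and 193 CPM (-0.04 ± 0.14) and Psmb4 at 194 and 184 CPM (0.16 ± 0.14), with rises from 6h of 0.46 and 0.64 log2. Psmb2 and Psmb3 were not called at 6h and were higher at 27h by 0.79 and 0.70 log2. A fall at 6h followed by a rise was shared by 2 chaperone genes. Psmd9 fell from 30.7 and 34.3 CPM to 18.6 and 17.8 CPM and stood at 29.5 and 26 CPM at 27h, and Psmg4 went from 16 and 14.9 CPM to 8.42 and 10.3 CPM and then 18.8 and 17.6 CPM. Of these 4 falls, that of Psmd9 held with any 1 library left out. Psmd9 shares 25.5% of its exons with Gm26745 on the other strand and 24.9% of its windows with other genes.

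Among the catalytic genes of the standard core, Psmb5 and Psmb7 were higher at 27h and Psmb6 was not called at either time. Psmb5, which encodes the chymotrypsin-like subunit, stood at 12.2 and 12.6 CPM at 0h, then 17.6 and 20.5 CPM at 6h, then 29.1 and 22.9 CPM at 27h. Against 0h it was higher by 0.62 ± 0.20 after 6h, with an adjusted p of 0.0208, and by 1.07 ± 0.19 after 27h, with 0.000698. Psmb6, the caspase-like subunit, stood at 108 and 106 CPM, 114 and 117 CPM and 133 and 131 CPM at the 3 times (0.30 ± 0.13 at 27h, adjusted p = 0.0796). Psmb7, the trypsin-like subunit, was at 90.6 and 85.9 CPM, 78.1 and 82.5 CPM, and 122 and 121 CPM (0.46 ± 0.13 at 27h, adjusted p = 0.01). Thus the level of Psmb5 did not overlap between 0h and either later time. Of the windows of Psmb5 54.1% occur in other genes' transcripts, so its low level per kb (a mean of 19.6 CPM, against 63.2 for Psmb6) is uncertain.

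Proteasome genes are known targets of NRF1 (Nfe2l1), which binds the antioxidant response element. A search of the 250 bases before the RefSeq starts (GRCm38.p6, both strands, windows found for 38 of the 45 genes) for TGACNNNGC found it in 5 of 41 member windows, those of Psmb5, Psmb6, Psmc6, Psmd9 and Psmd12, and in 10.2% of 32851 windows of all genes. Psmb5 and Psmb6 are shown because both hold a match near the start and their changes in wt differ, with the match in capitals.
Psmb5, chr14:54618023-54618245, minus strand: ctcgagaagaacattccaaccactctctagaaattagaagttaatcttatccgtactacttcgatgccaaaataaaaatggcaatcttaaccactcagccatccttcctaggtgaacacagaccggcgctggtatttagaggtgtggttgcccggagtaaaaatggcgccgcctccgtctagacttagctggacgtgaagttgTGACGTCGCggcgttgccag
Psmb6, chr11:70525107-70525356, plus strand: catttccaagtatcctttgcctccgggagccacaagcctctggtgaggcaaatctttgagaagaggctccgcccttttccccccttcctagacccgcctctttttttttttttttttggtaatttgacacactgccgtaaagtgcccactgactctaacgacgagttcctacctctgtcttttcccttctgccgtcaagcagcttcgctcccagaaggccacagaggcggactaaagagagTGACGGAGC
In Psmb5 the match lies 47 to 39 bases before the start and in Psmb6 9 to 1 bases before it. A match is a description of letters and was not tested as a site.

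The regulatory particle rose in nearly all its genes by 27h. All 6 ATPase genes were higher at 27h than at 0h, with a median of 0.90 log2, and 4 at 6h (Psmc1, Psmc2, Psmc4 and Psmc6). With the replicate number, which follows the sequencing lane, as a block, Psmc4 and Psmc6 were no longer called at 6h (adjusted p = 0.0526 and 0.0521). Psmc1 went from 72.3 and 80.3 CPM to 92.7 and 98.3 CPM and 169 and 167 CPM, 1.14 ± 0.11 log2 above 0h at 27h (adjusted p = 4.28e-06). Psmc3 stood at 135 and 146 CPM at 0h, then 145 and 140.3 CPM at 6h, then 202 and 196 CPM at 27h, so its libraries at 0h and 6h overlapped and those at 27h stood above both.

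Of the 11 non-ATPase genes, 6 were higher at 6h (Psmd1, Psmd2, Psmd3, Psmd4, Psmd7 and Psmd11) and 10 at 27h. Psmd1, a large scaffold subunit of the base, stood at 102 and 101 CPM at 0h, then 144 and 142 CPM at 6h, then 263 and 252 CPM at 27h (1.35 ± 0.12 at 27h, adjusted p = 4e-06). Psmd2, the other large scaffold subunit, stood at 142 and 146 CPM, 208 and 204 CPM, and 325 and 333 CPM (1.19 ± 0.11, adjusted p = 4.93e-06). Psmd7, a partner of the deubiquitinase Psmd14 in the lid, stood at 56.4 and 58.1 CPM, 104 and 109.6 CPM, and 144 and 149 CPM (1.36 ± 0.16, adjusted p = 2.73e-05). In these 3 genes the libraries of each time stood apart from those of the others and in the order of the times. Psmd14 itself was not called at 6h (0.16 ± 0.16) and was higher at 27h by 0.95 ± 0.16. Psmd8, a lid subunit, was the exception at 27h, at 219.8 and 219 CPM at 0h, then 164 and 193 CPM at 6h, then 189 and 192 CPM at 27h (-0.20 ± 0.18, adjusted p = 0.369).

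Psmd11, a lid subunit known to limit the assembly of the capped proteasome, had the largest early rise of the 45 genes. Its level went from 69.1 and 74.5 CPM at 0h to 183 and 205 CPM at 6h, then 165 and 151 CPM at 27h. The rise was 1.43 ± 0.13 log2 at 6h, with an adjusted p of 3.66e-06, and 1.14 ± 0.13 at 27h, with 1.65e-05, and the step from 6h to 27h was -0.30 ± 0.12 (adjusted p = 0.0797). Psmd11 and Psme3 were the 2 genes of the 40 with a fitted change from 6h to 27h below 0. The stretch before its start is shown because Psmd11 is also the gene whose response differed most between the genotypes, with a match to the NF-kB consensus in capitals.
Psmd11, chr11:80428365-80428614, plus strand: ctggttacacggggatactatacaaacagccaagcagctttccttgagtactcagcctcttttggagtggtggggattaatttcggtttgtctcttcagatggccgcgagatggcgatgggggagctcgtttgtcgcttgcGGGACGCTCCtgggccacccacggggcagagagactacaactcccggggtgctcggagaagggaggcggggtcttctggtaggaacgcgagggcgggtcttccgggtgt
The match lies 109 to 100 bases before the start. The NF-kB consensus was found in 6 of 41 member windows, those of Psma6, Psma7, Psmd11, Psmd12, Psmd13 and Psme4, and in 7.3% of all windows, and of the other genes of these only Psma6 and Psme4 were higher in wt at 6h.

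The chaperone genes were mixed. Psmg1 and Psmg3, at the low end of the family, were higher at 6h and 27h, with Psmg1 at 11.8 and 11.2 CPM at 0h, then 18 and 21.2 CPM at 6h, then 21.7 and 23.6 CPM at 27h. Psmg2 and Psmd5 were called at 27h against 0h and not at 6h, and Psmd10, the oncoprotein gankyrin, was called at neither time (0.20 ± 0.15 at 27h). The nuclear activator gene Psme3 was at 239.6 and 231 CPM at 0h, then 311 and 338 CPM at 6h, then 307 and 301 CPM at 27h. It was higher at 6h by 0.46 ± 0.15 (adjusted p = 0.0208), a call lost with any 1 of the 4 libraries left out. Psme4, which encodes the activator PA200, was higher by 0.28 ± 0.10 at 6h and 0.36 ± 0.10 at 27h. Its call at 6h was also lost with any 1 of the 4 libraries left out, and that at 27h without wt 0h replicate 2 or wt 27h replicate 1.

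The immunoproteasome genes went the other way in wt cells, except Psme2. At 6h, 4 of the 5 were lower and 1 was higher, where 23.5% of all genes tested were lower and 22.6% higher. Psmb10 fell most, from 79.9 and 84.8 CPM at 0h to 38.6 and 39 CPM at 6h (-1.09 ± 0.16, adjusted p = 0.00015), and stood at 50.9 and 47.1 CPM at 27h (-0.75 ± 0.16 against 0h, adjusted p = 0.00172). Psmb9 was at 122 and 122 CPM, then 77.4 and 83.1 CPM, then 89.8 and 92.9 CPM, lower by 0.60 ± 0.10 at 6h (adjusted p = 0.000554). Psmb8 was at 243 and 237 CPM, then 149.5 and 159 CPM, then 251 and 253 CPM, so it fell by 0.64 ± 0.11 at 6h (adjusted p = 0.000586) and rose again by 0.71 ± 0.11 from 6h to 27h (adjusted p = 0.000604). The 3 catalytic genes thus fell together at 6h and parted by 27h, when Psmb8 was not called against 0h (0.07 ± 0.11) and Psmb9 and Psmb10 were still lower. For Psmb9 that last call (-0.42 ± 0.10, adjusted p = 0.0057) was lost without wt 27h replicate 1 (adjusted p = 0.0507, range over the 4 libraries left out 0.0326 to 0.0507).

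The summed markers of cell types also changed in wt over this time. B cell markers stood at 10619 and 10881 CPM at 0h, then 5648 and 5548 CPM at 6h, then 6131 and 6384 CPM at 27h. Macrophage and monocyte markers went from 135 and 140.1 CPM to 37.2 and 35.3 CPM and then 67.9 and 72.4 CPM, and dendritic cell markers (7 of 7 found, none at 0 in all libraries) from 34 and 32.8 CPM to 68.6 and 67.4 CPM and then 35.4 and 36.5 CPM. The part of other cells in the changes of the immunoproteasome genes was not tested.

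**Figure D2:**
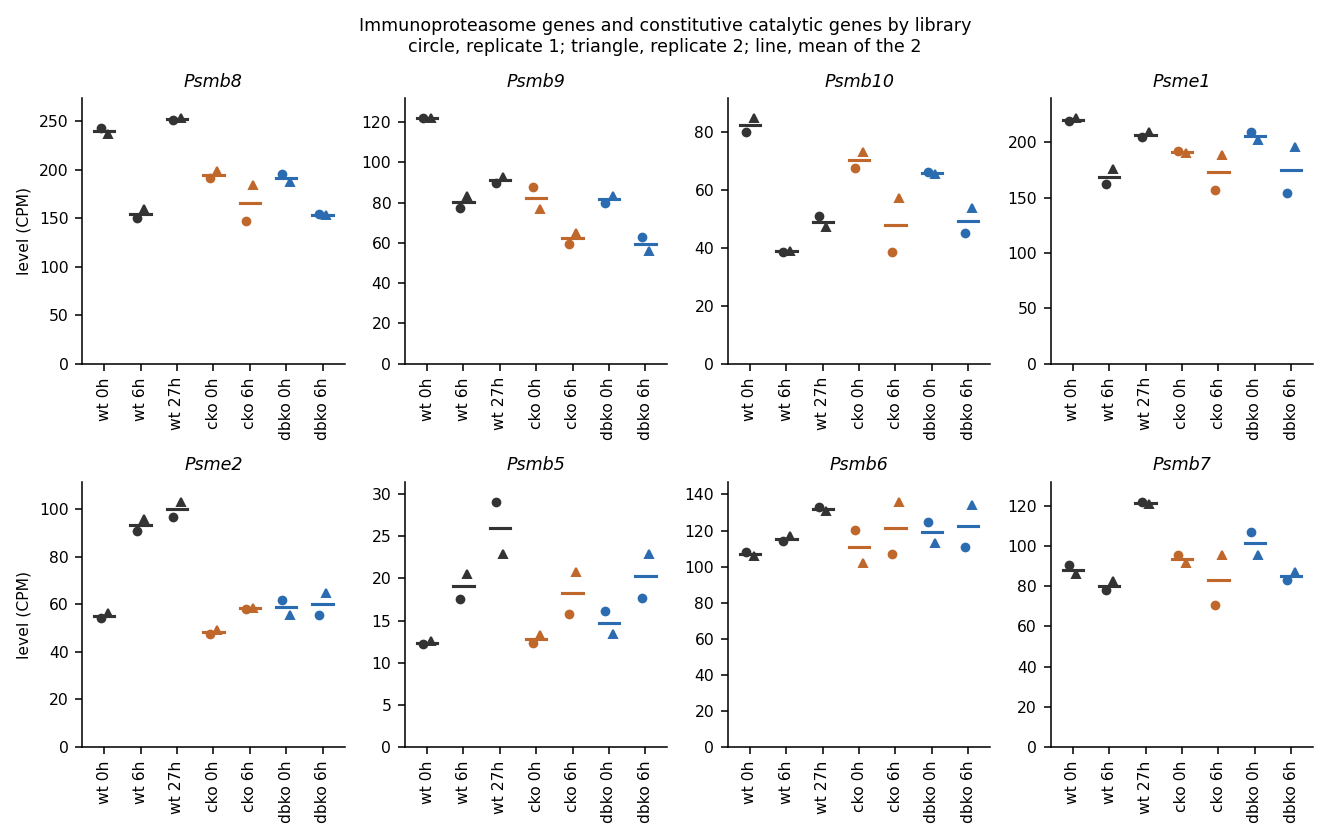
Level in CPM (vertical axis, from 0) of the 5 immunoproteasome genes and of Psmb5, Psmb6 and Psmb7 in each of the 14 libraries, by group along the horizontal axis; circles are replicate 1, triangles replicate 2 and lines the mean of the 2. Psmb8, Psmb9 and Psmb10 are lower at 6h in wt, and Psme2 reaches 90.6 CPM and more only in wt cells with BAFF.

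The balance between each inducible catalytic gene and its standard counterpart moved accordingly. Per kb of exon, Psmb10 made up 63.9% and 66.5% of the Psmb10 and Psmb7 pair in wt at 0h, 49.8% and 48.7% at 6h and 45.6% and 43.9% at 27h. Psmb9 made up 36.7% and 36.9% of its pair with Psmb6 at 0h, 25.8% and 26.6% at 6h and 25.7% and 26.6% at 27h. Psmb8 made up 84.1% and 83.4% of its pair with Psmb5 at 0h, 69.4% and 67.4% at 6h and 69.6% and 74.6% at 27h. In all 3 pairs both libraries at 0h stood above all 4 later wt libraries. The share of a pair depends on the lengths used and, for Psmb8, on the uncertain counts of Psmb5, but the order of the libraries within a pair is the same for any lengths. In RNA the summed level of the 3 inducible genes per kb was 152 and 153 CPM in wt at 0h, against 97.7 and 96 CPM for their counterparts, and at 27h 129 and 128 CPM against 139 and 131 CPM.

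The 2 subunit genes of the PA28 ring moved apart. They lie on opposite strands of chromosome 14 with 5911 bases between them in GRCm38, Psme1 at chr14:55578123-55581529 and Psme2 at chr14:55587441-55591113. Psme2 rose from 54.1 and 56.3 CPM at 0h to 90.6 and 95.8 CPM at 6h, then 96.7 and 103 CPM at 27h (0.76 ± 0.11 for 6h against 0h with an adjusted p of 0.00012, and 0.86 ± 0.11 for 27h with 3.9e-05). Psme1 was at 219 and 222 CPM, then 162 and 176 CPM, then 205 and 209 CPM, lower at 6h by 0.38 ± 0.13 (adjusted p = 0.0251, a call lost with any 1 of the 4 libraries left out). The ratio of Psme2 to Psme1 counts was 0.247 and 0.254 in wt at 0h, 0.56 and 0.544 at 6h and 0.471 and 0.494 at 27h. Of the windows of Psme2 28.3% occur in other genes' transcripts. The near copy Psme2b stood at 12.1 and 11.7 CPM at 0h, then 7.14 and 5.1 CPM at 6h (-0.96 ± 0.21, adjusted p = 0.00238). Alignments that were not unique are not in these counts, and the part of shared sequence in the levels of Psme2 was not tested. The stretch before the start of Psme2 is shown as that of the one immunoproteasome gene that rose.
Psme2, chr14:55591114-55591351, minus strand: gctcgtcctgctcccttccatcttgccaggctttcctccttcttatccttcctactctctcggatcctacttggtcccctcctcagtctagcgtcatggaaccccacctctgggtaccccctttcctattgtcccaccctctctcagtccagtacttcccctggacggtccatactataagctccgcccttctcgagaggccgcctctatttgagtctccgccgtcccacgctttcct
It ends 13 bases before the start, next to exon sequence, and the 250 bases before the start held no match to the 5 motifs searched: the NF-kB consensus, TGACNNNGC, the core of the interferon-stimulated response element, GAAANNGAA (7.1% of all windows), the gamma-activated site TTCNNNGAA (7.0%) and CCAAT (33.8%).

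Before BAFF, Psmb9 was the 1 gene of the 45 called in cko cells against wt. None of the 40 genes was called in cko against wt at 0h by edgeR or by DESeq2, and 1 was higher at an unadjusted p under 0.05, where 0.918% of all genes tested were called higher and 0.578% lower. The lower and upper quartiles of the 40 differences were -0.07 and 0.08 log2. Psmb9 was at 122 and 122 CPM in wt, 87.5 and 76.9 CPM in cko and 79.6 and 83.5 CPM in dbko, so that neither knockout overlapped wt. It was lower by 0.57 ± 0.10 in cko (adjusted p = 0.0183) and by 0.58 ± 0.10 in dbko (adjusted p = 0.00357). The call in cko was lost with any 1 of its 4 libraries left out (adjusted p 0.0682 to 0.275), and that in dbko was not (0.00516 to 0.0419). All 5 immunoproteasome genes were lower in cko than in wt at 0h within each lane, and for the 4 beside Psmb9 the differences were -0.30 (Psmb8), -0.23 (Psmb10), -0.21 (Psme1) and -0.19 (Psme2), none of them called. The cko and wt libraries of these 4 genes did not overlap, with Psmb8 at 191 and 198 CPM in cko against 243 and 237 CPM in wt. The share of all genes whose libraries did not overlap was not counted. By the fit over both lanes, 5835 of all 12630 genes tested were above wt in cko at 0h. With these 2 groups fitted alone, Psmb8 and Psme1 were also called lower (adjusted p = 0.00338 and 0.0465), and 3 of the 40 genes were higher and 1 lower. The summed macrophage markers also stood lower at 0h in cko (39 and 35.2 CPM) than in wt (135 and 140.1 CPM). The part of other cells in the lower levels of the immunoproteasome genes was not tested.

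In dbko at 0h the calls among the 40 genes were few and changed with each of the 4 libraries compared. Against wt, 4 were higher (Psma1, Psmc1, Psmc6 and Psmd7) and 0 lower, where 7.10% of all genes were higher and 4.55% lower; DESeq2 called 7 higher and 0 lower, and 14 were higher and 0 lower at an unadjusted p under 0.05. Without dbko 0h replicate 1 the count of higher genes was 0, and without dbko 0h replicate 2 it was 18. It was also 0 without either wt 0h library. Within lane 7 the median difference was 0.43 log2 with 38 of 40 above wt, and within lane 8 it was 0.09 log2 with 26 of 40 above. Psmd7 showed the pattern, at 104 and 71.2 CPM in dbko and 56.4 and 58.1 CPM in wt, and Psmd8 stood at 377 and 246 CPM in dbko and 219.8 and 219 CPM in wt (0.51 ± 0.18, adjusted p = 0.0832). The same library had the higher sum of red cell precursor markers, 1764 against 856 CPM, and the part of these cells in the result was not tested. Against cko at 0h, 1 of the 40 was higher in dbko, Psmd13, and 0 lower, where 6.63% and 2.39% of all genes were; DESeq2 called 2 higher and 0 lower, and at an unadjusted p under 0.05 12 were higher and 0 lower. Without dbko 0h replicate 1 or either cko 0h library that count was 0, and without dbko 0h replicate 2 it was 20.

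**Figure D3:**
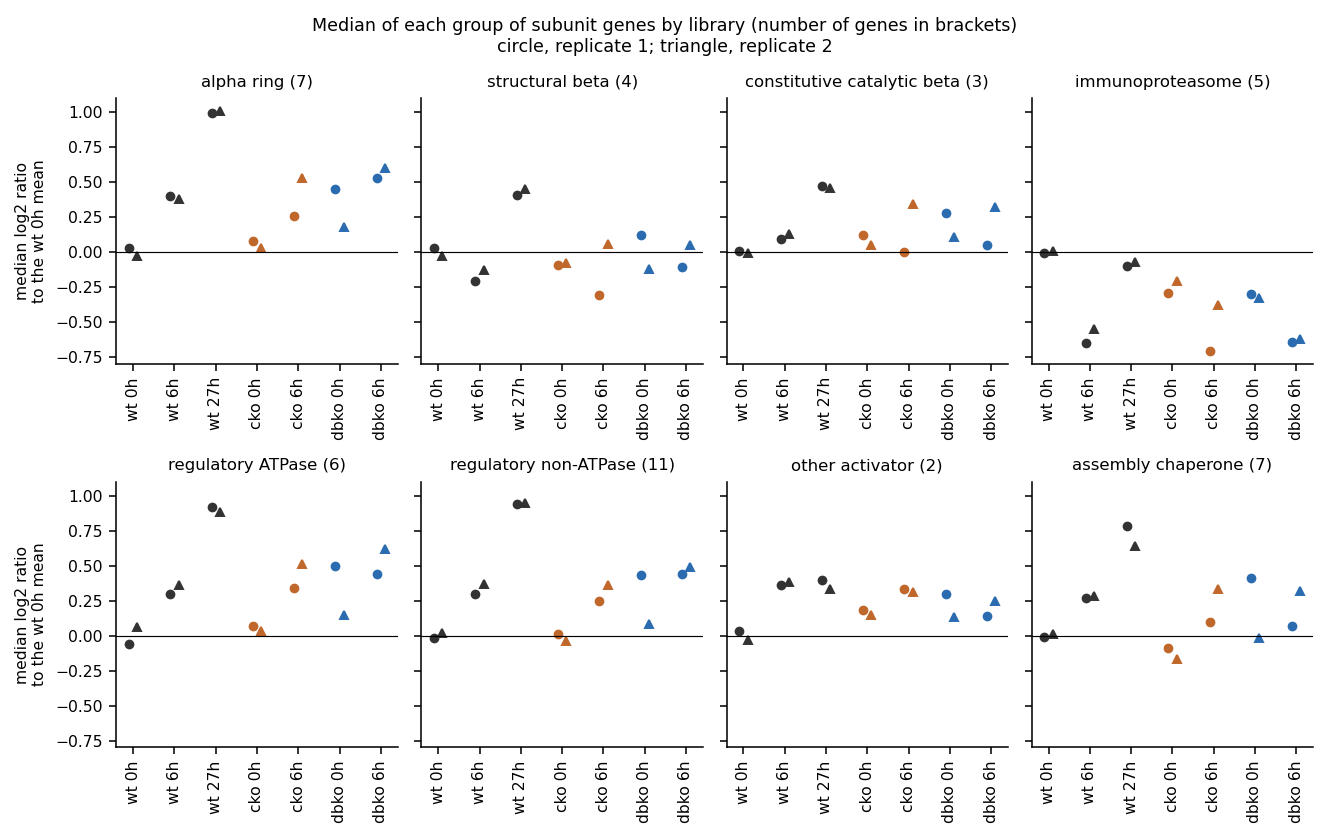
Median over the genes of each role of the log2 ratio of the level to the wt 0h mean (vertical axis), for each of the 14 libraries by group (horizontal axis); circles are replicate 1 and triangles replicate 2. In wt at 27h the alpha ring stands at 0.99 and 1.01 and the structural beta genes at 0.41 and 0.45, and in dbko at 0h replicate 1 lies above replicate 2 in every role, by least in the immunoproteasome, where the 2 stand at -0.30 and -0.33.

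With 6h of BAFF some of the 40 genes were called higher in each knockout, and in both the count changed with single libraries. In cko 16 were higher at 6h than at 0h and 1 lower (Psmd8), against 21.8% and 20.1% of all genes, with a median of 0.29 log2. In dbko 8 were higher and 2 lower (Psmd8 and Psmd9), against 19.3% and 20.3%, with a median of 0.21 log2. Leaving out cko 0h replicate 1, cko 0h replicate 2 or cko 6h replicate 2 gave cko counts of higher genes of 8, 9 and 8, and that of lower genes was 0 without the first library of either cko group and 5 without cko 6h replicate 2. Leaving out dbko 0h replicate 1, dbko 0h replicate 2 or dbko 6h replicate 2 gave dbko counts of 16, 1 and 4, and the count of lower genes was 1 without the first library of either dbko group. With both first dbko libraries left out 20 were higher and 1 lower, and with both second ones 1 was higher and 4 lower. With the 2 dbko groups fitted alone, 0 of the 40 were called in either direction. Within lane 7 the median change in dbko was -0.03 log2 and within lane 8 it was 0.40, while in wt these values were 0.28 and 0.32.

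Genes outside the immunoproteasome that rose by 6h were in part the same in the 3 genotypes. Of all genes tested, 22.6% were called higher at 6h in wt, 21.8% in cko and 19.3% in dbko. The overlap of those lists was not counted, so whether the family shared more of its rises than other genes was not tested. Of the 20 higher in wt and the 16 higher in cko 14 were shared, 70% and 87.5% of each list, and 7 were higher in all 3: Psma5, Psmc1, Psmc2, Psmd1, Psmd2, Psmd7 and Psmd11. The dbko list behind the last count is the one that was empty with the dbko groups fitted alone. Psmd1 was the steadiest of them, at 100.3 and 105 CPM at 0h, then 151 and 157 CPM at 6h in cko (0.59 ± 0.12, adjusted p = 0.00227), and at 136 and 102 CPM and then 181 and 197 CPM in dbko (0.66 ± 0.12, adjusted p = 0.00103). These calls held with any 1 library left out in each genotype, but that in dbko was lost with the 2 dbko groups fitted alone (adjusted p = 0.0814). Psmd8 fell in cko from 229.6 and 209 CPM to 122 and 158 CPM (-0.65 ± 0.18, adjusted p = 0.0113) and in dbko from 377 and 246 CPM to 168 and 158 CPM (-0.94 ± 0.18, adjusted p = 0.00124), and the call in dbko held with any 1 library left out and was lost with the 2 groups fitted alone (adjusted p = 0.06). The difference of its dbko response from that of wt was -0.64 ± 0.25 (adjusted p = 0.113).

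Psmd11 rose less in both knockouts than in wt. In cko it went from 83.8 and 82.1 CPM to 127 and 135 CPM (0.66 ± 0.13, adjusted p = 0.00115), and in dbko from 95.3 and 83.3 CPM to 105 and 133 CPM (0.41 ± 0.12, adjusted p = 0.0191), beside 183 and 205 CPM in wt at 6h. All 4 knockout libraries at 6h thus lay above those of their own genotype at 0h and below both wt libraries at 6h. The 6h response was smaller than that of wt by 1.02 ± 0.18 log2 in dbko (adjusted p = 0.00375), a call that held with any 1 of the 8 libraries left out (adjusted p 0.000416 to 0.0305). In cko it was smaller by 0.78 ± 0.18 (adjusted p = 0.0482), a call lost with each of the 8 libraries left out (0.072 to 0.239) and with the replicate number as a block (adjusted p = 0.0507). The rise in dbko was itself no longer called without dbko 0h replicate 2 or dbko 6h replicate 2 (adjusted p up to 0.161) or with the 2 dbko groups fitted alone (0.191). At 6h Psmd11 was the 1 gene of the 40 lower in cko than in wt (-0.57 ± 0.12, adjusted p = 0.0246, lost with each of the 4 libraries left out), against 1.96% of all genes called lower. DESeq2 also called 1 lower and 0 higher, and at an unadjusted p under 0.05 2 were lower and 2 higher, where 1.58% of all genes were called higher. In dbko Psmd11 was lower than in wt at 6h by 0.71 ± 0.12 (adjusted p = 0.00172), and that held with any 1 library left out.

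**Figure D4:**
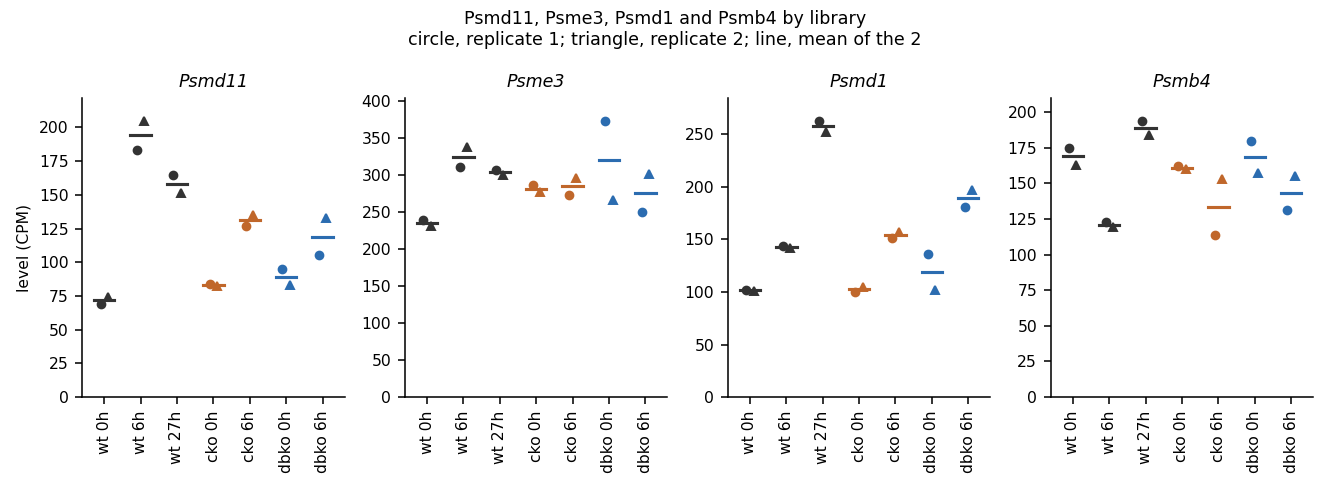
Level in CPM (vertical axis, from 0) of Psmd11, Psme3, Psmd1 and Psmb4 in each of the 14 libraries by group (horizontal axis); circles are replicate 1, triangles replicate 2 and lines the mean of the 2. Psmd11 at 6h stands at 183 and 205 CPM in wt and at 105 to 135 CPM in the 4 knockout libraries, while Psmd1 at 6h reaches 142 CPM or more in all 3 genotypes.

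Few of the 40 genes were called for a difference of the 6h response between genotypes, and the counts of smaller responses were near the shares of all genes. Against wt, the cko response was smaller for 1 of the 40 genes and larger for 0, where 1.15% and 0.554% of all genes were, and DESeq2 called 1 smaller and 0 larger, with 2 smaller and 0 larger at an unadjusted p under 0.05. The dbko response was smaller than that of wt for 2 (Psmd11 and Psme3) and larger for 0, where 6.94% and 6.90% of all genes were, and DESeq2 gave 2 and 0 as well, with 5 and 0 at an unadjusted p under 0.05. Without dbko 0h replicate 2 the count of smaller responses was 6. Each of the other libraries but dbko 6h replicate 2, left out on its own, gave 1. Between dbko and cko 0 responses differed by edgeR or DESeq2, with 2 smaller in dbko at an unadjusted p under 0.05, where 0.348% of all genes were called smaller and 0.586% larger. These comparisons share the wt or the cko and dbko libraries.

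At 6h the dbko cells had 6 of the 40 genes above wt (Psma1, Psmc1, Psmd1, Psmd6, Psmd9 and Psmg4) and 1 below, where 15.2% of all genes were higher and 11.5% lower. The count of higher genes was thus near the share of all genes. Psmc1 stood at 133 and 128 CPM in dbko and 92.7 and 98.3 CPM in wt (0.45 ± 0.10, adjusted p = 0.00796). Psmd9 stood at 27.4 and 30.5 CPM in dbko and 18.6 and 17.8 CPM in wt, and Psmg4 at 12.5 and 17.7 CPM in dbko and 8.42 and 10.3 CPM in wt, so the libraries of neither gene overlapped. Leaving out wt 6h replicate 1, wt 6h replicate 2 or dbko 6h replicate 2 gave counts of higher genes of 0, 1 and 3, fitting the 2 groups alone gave 0, and with the replicate block Psma1 and Psmd6 were no longer called (adjusted p = 0.0513 and 0.0514). Against cko at 6h, 0 of the 40 were called in dbko by edgeR or DESeq2 and 1 was higher at an unadjusted p under 0.05, where 8.77% of all genes were higher and 4.66% lower.

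Psme2 did not reach its wt level at 6h in either knockout. It stood at 47.5 and 49 CPM at 0h, then 58 and 58.4 CPM at 6h in cko (0.27 ± 0.11, adjusted p = 0.0593), and at 61.9 and 55.5 CPM and then 55.4 and 64.5 CPM in dbko (0.03 ± 0.11, adjusted p = 0.842), where the libraries of the 2 times overlapped. At 6h it was lower than in wt by 0.68 ± 0.11 in cko (adjusted p = 0.004, lost without wt 6h replicate 2 at 0.0744, range 0.0218 to 0.0744) and by 0.64 ± 0.11 in dbko (adjusted p = 0.0012, held with any 1 library left out). The response was smaller than that of wt by 0.72 ± 0.15 in dbko (adjusted p = 0.00928), lost without wt 0h replicate 1 or wt 6h replicate 2 (range 0.00248 to 0.0531) and with the 4 groups fitted alone (0.05). In cko the difference was -0.48 ± 0.15 (adjusted p = 0.129, and 0.0219 with the 4 groups fitted alone). The ratio of Psme2 to Psme1 counts at 6h was 0.369 and 0.309 in cko and 0.36 and 0.329 in dbko, below both wt libraries.

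Of the 3 catalytic immunoproteasome genes, Psmb9 and Psmb10 were called lower at 6h in cko and all 3 in dbko, where none of these calls held with the 2 dbko groups fitted alone (adjusted p = 0.128 for Psmb9, 0.179 for Psmb10 and 0.247 for Psmb8). Of all genes tested, 20.1% were called lower at 6h in cko and 20.3% in dbko. Psmb9 fell from 87.5 and 76.9 CPM to 59.5 and 65.1 CPM in cko (-0.40 ± 0.11, adjusted p = 0.00913) and from 79.6 and 83.5 CPM to 63.1 and 55.9 CPM in dbko (-0.46 ± 0.11, adjusted p = 0.00443), and the call in dbko held with any 1 library left out. That in cko was lost without cko 0h replicate 1 or cko 6h replicate 1 (adjusted p 0.0145 to 0.0969). Psmb10 fell from 67.4 and 73 CPM to 38.6 and 57.3 CPM in cko (-0.55 ± 0.16, adjusted p = 0.0132) and from 66.1 and 65.4 CPM to 45 and 53.6 CPM in dbko (-0.42 ± 0.16, adjusted p = 0.0494), calls lost without 2 of the 4 cko libraries (cko 0h replicate 2 and cko 6h replicate 1, adjusted p up to 0.115) and without any dbko library but dbko 6h replicate 2 (up to 0.21). Its fall in dbko was smaller than in wt by a fitted 0.67 ± 0.22 log2 (adjusted p = 0.0619, and 0.0498 with the replicate number as a block). Psmb8 went from 195 and 187 CPM to 154 and 153 CPM in dbko (-0.31 ± 0.11, adjusted p = 0.0423, lost with any 1 of the 4 libraries left out) and from 191 and 198 CPM to 147 and 184 CPM in cko (-0.24 ± 0.11, adjusted p = 0.108). At 6h Psmb9 was lower in dbko than in wt by 0.43 ± 0.11 (adjusted p = 0.0104, lost without wt 6h replicate 2 at 0.0999, range 0.0132 to 0.0999, and with the 2 groups fitted alone at 0.08). Between 0h and 6h the summed red cell precursor markers of dbko went from 1764 and 856 CPM to 269 and 122 CPM, and their part in these differences was not tested.

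Genes that work with the proteasome without such a name moved in both directions in wt cells. Of 10 tested partners, 5 were higher at 6h and 3 lower, and 6 and 2 at 27h. Of all genes tested, 22.6% were higher and 23.5% lower at 6h and 23.0% and 24.6% at 27h, the background for the lists that follow as well. Higher at 6h were the ubiquitin receptor gene Adrm1 (0.77 ± 0.19), the deubiquitinase genes Usp14 (0.75 ± 0.14) and Uchl5 (0.45 ± 0.15) and the scaffold gene Ecpas (0.68 ± 0.10). Pomp, the maturation factor of the core particle that is built into each new one, fell at 6h and then rose above its first level: it went from 98.3 and 102 CPM to 66.4 and 63.2 CPM at 6h, then 142 and 139 CPM at 27h (-0.63 ± 0.14 at 6h with an adjusted p of 0.00243, and 0.49 ± 0.13 at 27h against 0h with 0.00986). Of 10 genes of the NRF1 pathway, 5 were higher and 4 lower at 6h. Nfe2l1 itself stood at 149.9 and 149.7 CPM at 0h, then 314 and 326 CPM at 6h, then 204 and 214 CPM at 27h (1.10 ± 0.11 at 6h, adjusted p = 1.19e-05). Its part in the levels of the subunit genes was not tested. Ddi2, the protease that activates NRF1, was higher at 6h by 0.90 ± 0.12, and Vcp, the segregase that draws it from the membrane, by 0.89 ± 0.12. Other genes of this pathway went down in wt. Ngly1 stood at 51.6 and 49.5 CPM at 0h, then 32.4 and 31.7 CPM at 6h. Nfe2l2 stood at 235 and 246 CPM, then 157 and 176 CPM. Nfe2l1 also rose in cko (0.65 ± 0.11) and dbko (0.95 ± 0.11), and at 6h it was lower in dbko than in wt by 0.41 ± 0.11 (adjusted p = 0.0174).

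Ubb, a polyubiquitin gene, and most interferon regulators were lower in wt at 6h. Ubb stood at 387 and 385 CPM at 0h, then 117 and 136 CPM at 6h, within a list of 9 ubiquitin supply genes of which 2 were higher and 2 lower, near the share of all genes. Of 9 interferon-related regulators of immunoproteasome genes 5 were lower and 1 higher at 6h, and 6 and 0 at 27h, where 23.5% and 24.6% of all genes tested were lower. Irf1, an activator of Psmb9 and Tap1, went from 359.5 and 386 CPM to 115 and 103 CPM at 6h, then 86.2 and 91.7 CPM at 27h (-1.78 ± 0.14 at 6h, adjusted p = 1.77e-06). Nlrc5, the class I transactivator, fell as well but, unlike Irf1, rose again, at 162 and 150.4 CPM, then 95.5 and 83.7 CPM, then 165 and 159 CPM. Of 11 class I processing genes 2 were higher and 5 lower at 6h, and Tap1, the neighbour of Psmb9, stood at 292 and 297 CPM at 0h, then 267 and 268 CPM at 6h (-0.14 ± 0.11, adjusted p = 0.328). It was lower at 27h by 0.66 ± 0.11 (adjusted p = 0.000372). In the knockouts at 6h Irf1 was also lower than at 0h, by 1.02 ± 0.14 in cko and 0.88 ± 0.14 in dbko.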

How the data were processed

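The deposited files give, per the files themselves, whole-number read counts per Ensembl gene for each of 14 libraries of poly-A primed cDNA. The authors' counts end in lines that name no gene and were left out here: alignments that were not unique (38.77% to 49.85% of a file's total), which lowers counts of genes with near copies, those in no gene (5.21% to 11.46%) and ambiguous ones (0.41% to 0.49%). CASAVA 1.8.2 is named in the submitters' processing notes, and the sources used here do not give the aligner, counter, strand setting or build. IDs were matched to GENCODE M21 symbols (37693 of 39179 IDs, 99.56% of counts).

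Counts were scaled by TMM and tested with edgeR 4.0.16 (R 4.3.3, limma 3.58.1) by the quasi-likelihood test, with 1 mean for each of the 7 groups, robust estimates and filterByExpr by group, which left 12630 genes. A gene was called at a Benjamini-Hochberg adjusted p under 0.05 over all of these. Levels are CPM on scaled library sizes. The script was tested on simulated counts. Alternatives were DESeq2 1.42.0, DESeq2 size factors, no filter, the compared groups alone, a replicate block and each library left out, and, added after seeing the data, both first or both second dbko libraries left out. Replicate numbers follow lanes 7 and 8. Deviations from group means correlated over 0.1 in 4 of 21 pairs of groups (-0.17 to 0.48 over all pairs), and the block was not used in the main test. These correlations do not settle whether libraries with the same number are paired. The text names all members by role and, of other genes, those of lists of partners and regulators. The members and lists were chosen with earlier results of these data known.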

Additional observations from a re-analysis of the deposited data

Results flagged for a closer look

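Of the 45 genes, 3 had a 6h response that differed between genotypes by the test of the difference itself. For Psmd11 the response was 0.66 ± 0.13 log2 in cko and 1.43 ± 0.13 in wt, a difference of -0.78 ± 0.18 (edgeR adjusted p = 0.0482), and it was 0.41 ± 0.12 in dbko, a difference of -1.02 ± 0.18 (adjusted p = 0.00375). All 4 libraries of the knockouts rose over their own 0h level, and both wt libraries at 6h stood above them. For Psme2 the response was 0.03 ± 0.11 in dbko and 0.76 ± 0.11 in wt, a difference of -0.72 ± 0.15 (adjusted p = 0.00928). For Psme3 it was -0.21 ± 0.15 in dbko and 0.46 ± 0.15 in wt, a difference of -0.68 ± 0.21 (adjusted p = 0.0474), with dbko levels of 374 and 267 CPM before BAFF, then 251 and 302 CPM after 6h, so that its libraries overlapped. That call was lost without any 1 of 6 of its 8 libraries, all but dbko 0h replicate 2 and dbko 6h replicate 2 (adjusted p 0.00356 to 0.168), with the replicate block (0.0533) and with the 4 groups fitted alone (0.139). The call of Psme2 was also lost with those groups fitted alone (0.05). The level of Psme3 in dbko 0h replicate 1 moved with the higher level of the same library over most of the family. The part of that library's make-up in the difference for Psme3 was not tested.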

How the results depend on the processing

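Of 146 calls of the 45 genes in the 14 comparisons, 67 held and 79 were lost with at least 1 library of the comparison left out, and all 146 kept their direction. DESeq2 changed 13 of the 630 tests (7 calls lost, 6 gained), its size factors ended 5 calls, no filter ended 16 and added 9, and the compared groups fitted alone ended 28 and added 38. With that last setting the counts of the 40 genes were 2 lower for wt 27h and 1 lower from 6h to 27h, 0 higher and 0 lower for dbko at 6h, 3 higher and 1 lower for cko against wt at 0h, 0 higher for dbko against either genotype at 0h and against wt at 6h, and 3 and 1 smaller responses in cko and dbko than in wt. Without the filter, 5 were higher in dbko at 6h against 0h, and at 0h 8 against wt and 3 against cko. DESeq2 gave 7 and 2 for these last comparisons.

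The replicate numbers follow the lane, and the labels do not say whether they also mark a shared animal or culture. Of the 21 pairs of groups, 4 had deviations correlated over 0.1, with a range of -0.17 to 0.48 over all pairs. With the replicate block 6 calls were lost and 1 gained, which left 0 smaller responses in cko and 1 in dbko against wt; apart from the 7 genes named with their blocked values, it changed no call.

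Without both first dbko libraries, dbko at 6h had 20 higher and 1 lower than at 0h, dbko at 0h had 0 higher than wt or cko, dbko at 6h had 10 above wt and 3 above cko, and against wt 2 responses were larger and 1 smaller. Without both second ones these values were 1 and 4, 26 and 23, and 3 below wt, 1 above and 1 below cko at 6h, with 10 responses smaller than in wt and 7 smaller than in cko. With single libraries left out, the ranges were 8 to 11 higher and 1 to 3 lower for wt 6h, 14 to 20 higher for wt 6h to 27h, 8 to 17 higher and 0 to 5 lower for cko at 6h, and 1 to 16 higher and 1 to 3 lower for dbko at 6h. For dbko at 0h they were 0 to 18 above wt and 0 to 20 above cko. At 6h they were 0 to 0 below wt in cko and 0 to 4 above wt in dbko. Smaller responses numbered 0 to 0 in cko and 1 to 6 in dbko against wt, and 0 to 1 in dbko against cko. A library left out also leaves 1 in its group, which is then assumed to vary like the others, so tests with fewer libraries have less precision.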
